A study of Homo sapiens with 4 samples.

Results

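Podoplanin (PDPN), testican-1 (SPOCK1), the sushi repeat protein SRPX2, the hyaluronan receptor CD44 and the membrane-to-actin linkers ezrin (EZR), moesin (MSN) and radixin (RDX) were described in TPC1, an established line of human papillary thyroid cancer cells. The 7 genes were taken by symbol from the 13165 genes of the deposited table, and all 7 were found. PDPN, SPOCK1 and SRPX2 were selected on their FPKM values, which were higher in the cells overexpressing INAVA (innate immunity activator, listed under its older symbol C1orf106), so their difference between the groups is a description and not a result of a test. CD44 and the ezrin, radixin and moesin (ERM) genes were added as partners of podoplanin.

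RNA was sequenced from TPC1 cells carrying an empty vector (TPC1-Vector) and from TPC1 cells carrying a vector that expresses C1orf106 (TPC1-INAVA), with 2 libraries in each group. Both groups were grown in the same serum-containing medium and were stable lines selected with 0.5 μg/mL puromycin for 2 weeks. Each line was selected separately, so a difference between the lines that arose during selection and an effect of INAVA cannot be told apart, and no source used here says whether the 2 libraries of a group came from separate cultures. The authors deposited 1 value per gene and group, in FPKM (fragments scaled to transcript length and to the mapped fragments of a library), so no spread between libraries and no replicate check can be computed from it, and the read depth is unknown. The table also holds the authors' own p-values and q-values, which were not used, so no difference is tested here.

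INAVA itself was at 7.96 FPKM with the empty vector and at 123 FPKM in TPC1-INAVA, which is in the direction of its label. Fold changes were computed on log2(FPKM + 0.5) for the 12305 genes whose mean of the 2 group values reached 0.5 FPKM, which understates the change of weak genes. Their median log2 fold change was 0.0033, and the lower and upper quartiles were -0.12 and 0.13. The sum of the vector column was dominated by 1 small RNA entry, SNORA57, with 77.4% of it, while the largest entry of the INAVA column held 0.885%. The thyroid transcription factor PAX8 was at 60.1 and 55.7 FPKM, and FOXE1 at 5.26 and 5.89 FPKM, in TPC1-Vector and TPC1-INAVA. Of 12 thyroid and epithelial markers 5 were analysed, 3 higher and 2 lower, with summed levels of 231 and 286 FPKM, most of it KRT18. Thyroglobulin, the TSH receptor and thyroid peroxidase were not analysed here.

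Podoplanin is a mucin-like transmembrane glycoprotein, best known as a marker of lymphatic endothelium, and tumour cells can carry it at their invasive front. Its short cytoplasmic tail holds basic residues that bind ezrin and moesin, and it associates with CD44 in the membrane. The ERM proteins bind such tails with an amino-terminal FERM domain and actin filaments with their carboxy terminus, and are opened by phosphoinositide binding and by phosphorylation. SPOCK1 and SRPX2 are secreted: testican-1 is a proteoglycan of the SPARC family, and SRPX2 is a ligand of the urokinase receptor uPAR.

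To show the sequence next to the values, the 250 bases before the RefSeq transcription start (GRCh38.p14) nearest to the start of the deposited gene were read for each gene. Of the 7 genes 6 had an entry, and SPOCK1 had none. The windows were searched on both strands for an AP-1 site (TGANTCA), for a GC box, which has the letters GGGCGG, and for the NF-κB consensus. They were also searched for the promoter element TATAAA and for the E-box of SNAI and ZEB factors, with the letters CACCTG. Capitals mark every match, and bases within exons of GENCODE release 29 were left out, except for a stretch of 30 bases of PDPN that lies in the first exon of 1 longer annotated transcript. The stretches shown are those of 2 genes selected for being higher and of the 3 ERM genes.
PDPN (chr1:13583720-13583749, forward strand): aacagagcccgaGGGCGGgcctagcgcgcc
SRPX2 (chrX:100643949-100644165, forward strand): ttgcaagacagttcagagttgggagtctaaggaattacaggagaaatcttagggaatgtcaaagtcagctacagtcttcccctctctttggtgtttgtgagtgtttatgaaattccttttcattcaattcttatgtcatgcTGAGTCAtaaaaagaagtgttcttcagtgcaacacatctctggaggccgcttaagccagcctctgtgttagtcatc
EZR (chr6:158818236-158818485, reverse strand): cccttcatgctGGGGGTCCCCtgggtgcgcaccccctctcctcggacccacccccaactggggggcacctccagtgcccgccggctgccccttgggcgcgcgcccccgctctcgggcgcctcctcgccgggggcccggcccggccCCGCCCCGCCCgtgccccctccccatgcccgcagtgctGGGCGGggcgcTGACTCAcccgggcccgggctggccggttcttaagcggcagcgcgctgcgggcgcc
MSN (chrX:65667404-65667653, forward strand): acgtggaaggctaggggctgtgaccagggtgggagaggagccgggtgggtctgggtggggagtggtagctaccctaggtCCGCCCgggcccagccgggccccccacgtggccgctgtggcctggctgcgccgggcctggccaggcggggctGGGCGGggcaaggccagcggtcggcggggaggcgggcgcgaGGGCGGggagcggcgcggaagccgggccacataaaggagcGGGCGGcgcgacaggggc
RDX (chr11:110296723-110296864, reverse strand): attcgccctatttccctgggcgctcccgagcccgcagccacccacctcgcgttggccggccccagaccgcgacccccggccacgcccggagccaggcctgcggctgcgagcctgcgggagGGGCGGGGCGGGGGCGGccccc

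The windows differed in base composition. GC content was 42.4% for SRPX2, 48.8% for PDPN, 62.4% for CD44, 78.0% for MSN, 80.8% for EZR and 82.0% for RDX, against a median of 58.0% over 35116 RefSeq windows of the same length. The 3 ERM genes had the highest GC content of the 6. GC boxes, present in 42.6% of all windows, numbered 4 for MSN, 3 each for EZR and RDX, 2 for CD44 and 1 for PDPN, and those of EZR and RDX partly overlap one another. SRPX2 had none. An AP-1 match, present in 6.57% of all windows, was found 109 bases before the start of SRPX2 and 56 bases before that of EZR. PDPN also had 1 match to TATAAA, 204 bases before its start and outside the stretch shown (10.7% of all windows). EZR had 1 NF-κB match (9.96%), and the E-box, held by 17.5% of all windows, was found in none of the 6. The RefSeq start of EZR lies 4004 bases inside the deposited gene and that of CD44 301 bases, whereas those of PDPN, MSN, SRPX2 and RDX lie within 98 bases of it.

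Among the genes selected for being higher, PDPN (chromosome 1, 13583757 to 13617957, hg38) had 4.67 FPKM in TPC1-Vector against 14.8 FPKM in TPC1-INAVA. The ratio was 3.17 and the log2 fold change 1.57, rank 23 from the top among the 12305 genes. Its level moved from percentile 29.02 to percentile 57.6 of the genes tested, that is, from among the weaker genes to just above the middle. No other gene of the table shares its position, and GENCODE lists no overlapping gene.

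SPOCK1 (chromosome 5, 136975298 to 137499329) stood at 6.09 FPKM in TPC1-Vector against 15.4 FPKM in TPC1-INAVA, with a ratio of 2.52 and a log2 fold change of 1.27, rank 40. It spans 524 kb, the longest of the 7 genes. PDPN and SPOCK1 had similar levels within each group, SPOCK1 being the higher of them in both. Levels in FPKM are per length of transcript and can be set side by side between genes, but the differences here have no measured error.

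SRPX2 (chromosome X, 100644166 to 100671299) was weak in both groups, at 0.243 FPKM with the vector and 0.823 FPKM with INAVA. Its ratio, 3.39, was the largest of the 7 genes, while its log2 fold change with 0.5 FPKM added was 0.83, rank 117, below those of PDPN and SPOCK1. Its mean of 0.533 FPKM lies just above the filter of 0.5 FPKM. The vector value alone lies below that filter, so SRPX2 passed only through the group in which it was selected for being higher. The order of SRPX2 against PDPN and SPOCK1 therefore depends on the scale, and the number of reads behind its value is not known.

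CD44 (chromosome 11, 35138870 to 35232402), which binds hyaluronan outside the cell and ERM proteins inside, stood at 165 FPKM in TPC1-Vector against 213 FPKM in TPC1-INAVA. The ratio was 1.29 and the log2 fold change 0.37, so it was higher, but less than 2-fold. Its level lay at percentiles 96.6 and 97.4 of the genes tested. The table gives 1 value for CD44 and does not separate its many splice forms, of which GENCODE lists 39 transcripts. Because PDPN differed more than CD44, there were 35.3 CD44 transcripts per PDPN transcript, on the FPKM scale, in TPC1-Vector and 14.4 in TPC1-INAVA. In absolute level the order of the differences was the other way, with 48.5 FPKM more of CD44 and 10.1 FPKM more of PDPN.

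**Figure D1:**
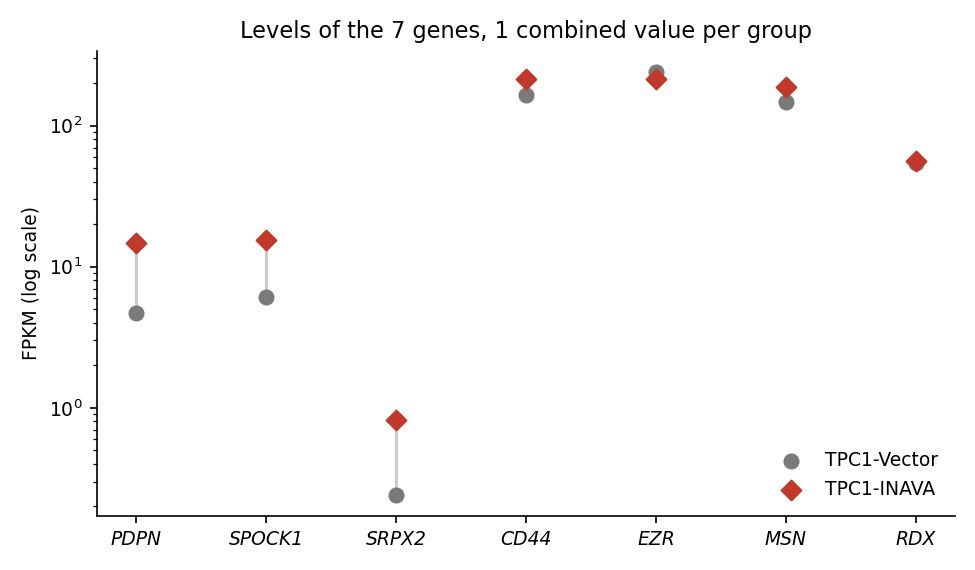
Level of each gene in FPKM on a log axis, with a grey circle for TPC1-Vector and a red diamond for TPC1-INAVA, each the authors' combined value for the group without an error. PDPN, SPOCK1 and SRPX2 are separated by ratios of 3.17, 2.52 and 3.39, whereas the symbols of RDX, at 54.3 and 56.0 FPKM, nearly coincide.

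The ERM transcripts did not all differ in the same direction, though these values have no measured error. EZR (chromosome 6, 158765741 to 158822239), the ERM protein typical of epithelial microvilli, stood at 241 FPKM in TPC1-Vector against 214 FPKM in TPC1-INAVA, with a ratio of 0.888 and a log2 fold change of -0.17. MSN (chromosome X, 65667644 to 65741931), the ERM protein typical of leukocytes and endothelium, was at 148 and 189 FPKM, with a ratio of 1.27 and a log2 fold change of 0.35. RDX (chromosome 11, 110174880 to 110296712) was at 54.3 and 56.0 FPKM, with a ratio of 1.03 and a log2 fold change of 0.045. EZR was thus the single gene of the 7 that was lower in TPC1-INAVA. Among all genes tested, 70.2% had a log2 fold change within 0.2 of 0, as did EZR and RDX.

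The sum of the ERM transcripts was 443 FPKM with the vector and 459 FPKM with INAVA. Within it, EZR held 54.3% and 46.6%, MSN 33.5% and 41.2%, and RDX 12.2% in both groups. The order EZR, MSN, RDX was the same in both groups, but the ratio of EZR to MSN was 1.62 in TPC1-Vector and 1.13 in TPC1-INAVA. Per podoplanin transcript there were 94.9 and 31.0 ERM transcripts on the FPKM scale, so ERM transcripts far outnumbered those of podoplanin in either group. Amounts of the proteins cannot be read from these values. Against CD44 and PDPN combined, the ERM sum was 2.62 and 2.01 times as high.

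**Figure D2:**
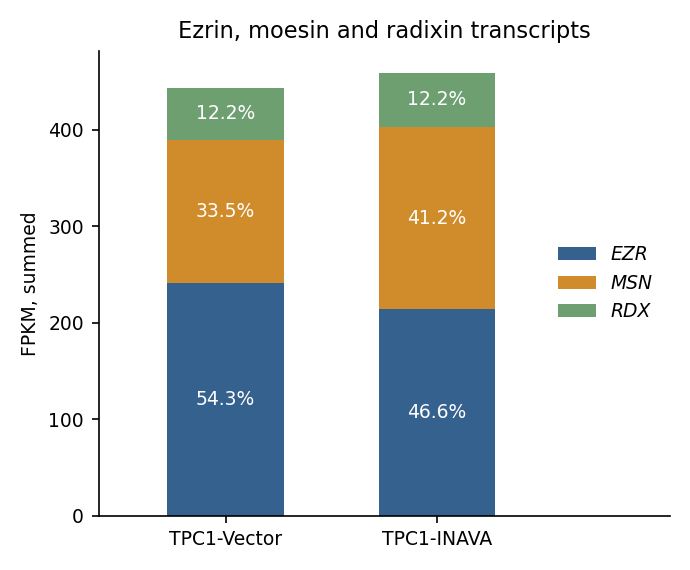
Stacked bars of the FPKM of EZR (blue), MSN (orange) and RDX (green) in each group, 1 combined value per group, with the share of the sum printed in each block. The totals are 443 and 459 FPKM, and the EZR block shrinks from 54.3% to 46.6% as the MSN block grows from 33.5% to 41.2%.

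Of the 7 genes, all of which passed the filter, 2 (PDPN and SPOCK1) were at least 2-fold higher and 0 at least 2-fold lower. Over all genes tested, 75 (0.610%) were at least 2-fold higher and 30 (0.244%) at least 2-fold lower. At 1.5-fold, 3 of the 7 were higher, with SRPX2 added, and 0 lower, against 276 (2.24%) higher and 179 (1.45%) lower of all genes. Nothing can be read from these counts, because 3 of the genes were chosen for being higher. Of the 4 others, CD44, MSN and RDX were higher by any amount, as were 50.8% of all genes.

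**Figure D3:**
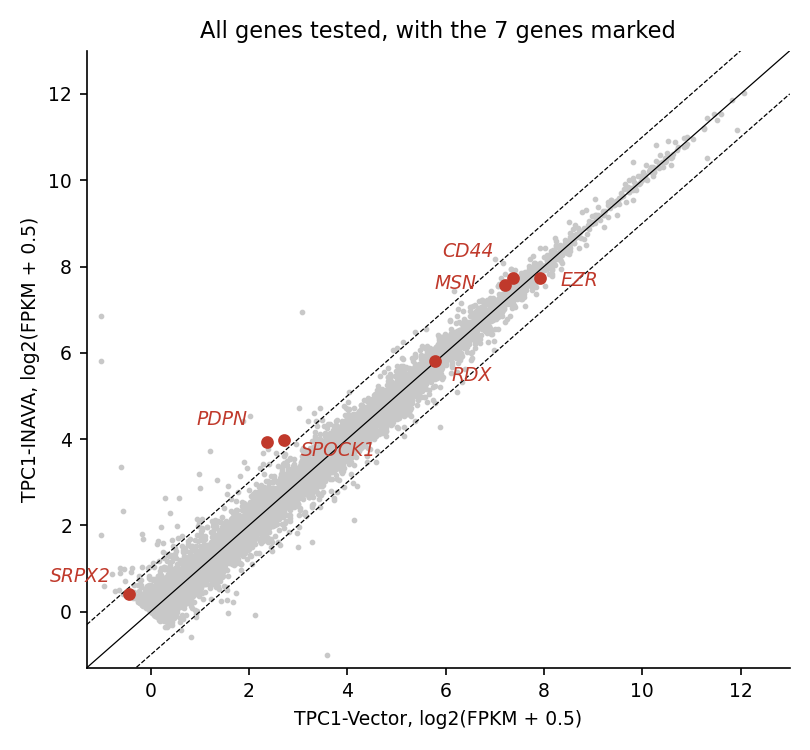
Each grey point is 1 gene tested, with log2(FPKM + 0.5) in TPC1-Vector on the horizontal and in TPC1-INAVA on the vertical axis, a solid line for equal values and dashed lines for 2-fold differences, and 1 gene lies beyond the horizontal axis. The red points of PDPN and SPOCK1 lie above the upper dashed line, SRPX2 lies below it at the weak end, and CD44, EZR, MSN and RDX lie between the dashed lines among the stronger genes.

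Of 15 regulators, adaptors and relatives of ERM proteins tested, 7 were higher and 8 lower, with a median log2 fold change of -0.012 against 0.0033 over all genes. None was past 2-fold, as holds for nearly all genes (0.610% higher and 0.244% lower by 2-fold). RHOA, the GTPase upstream of the kinases that phosphorylate ERM proteins, was at 393 and 395 FPKM, and its relative RHOC at 133 and 187 FPKM, the largest log2 fold change of the list (0.49). The kinases ROCK1, ROCK2 and STK10 had log2 fold changes of 0.0092, -0.099 and -0.017, whereas SLK, another ERM kinase, was at 26.7 and 20.0 FPKM (-0.41). The tumour suppressor merlin (NF2), a close relative of the ERM proteins, was at 30.2 and 36.2 FPKM, and the PDZ adaptor SLC9A3R1, which docks ezrin to membrane proteins, at 28.8 and 27.9 FPKM. Of 10 other FERM proteins tested, NF2 again included, 5 were higher and 5 lower, with a median of 0.032 and a range from -0.26 to 0.26. Talin (TLN1), which links integrins to actin, was at 103 and 122 FPKM.

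Of 7 membrane proteins tested to which ERM proteins bind, 5 were higher and 2 lower, with a median of 0.10, where 50.8% of all genes were higher. None was past 2-fold, again like nearly all genes. The adhesion receptor ICAM1 was at 3.25 and 3.52 FPKM and the proteoglycan syndecan-2 (SDC2) at 80.2 and 75.7 FPKM. Among partners of podoplanin, the tetraspanin CD9 was at 104 and 84.7 FPKM and galectin-8 (LGALS8) at 14.1 and 12.3 FPKM, both lower in TPC1-INAVA, while its platelet receptor CLEC1B and the chemokine CCL21 were not analysed here.

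On the side of CD44, 11 genes for hyaluronan and CD44 processing were tested, of which 5 were higher and 6 lower. Their median was -0.11, against 0.0033 over all genes. The ligand osteopontin (SPP1) stood at 126 FPKM in TPC1-Vector against 77.3 FPKM in TPC1-INAVA (log2 fold change -0.70), and the hyaluronan-binding proteoglycan versican (VCAN) at 92.1 and 58.0 FPKM (-0.66). These were the only genes of the list past 1.5-fold, where 1.45% of all genes were lower and 2.24% higher by that much. Because the list was chosen with earlier results of these data known, nothing can be read from the count. The hyaluronan synthase HAS3 was at 18.5 and 21.0 FPKM. Of the proteases that cut CD44, MMP14 was at 65.5 and 83.7 FPKM and ADAM10 at 48.2 and 38.0 FPKM.

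Of 7 relatives and targets of testican-1 tested, 5 were higher and 2 lower, with a median of 0.32, against 0.0033 over all genes. The list was chosen with earlier results of these data known, so this is a description only. SPARC was at 134 and 186 FPKM (log2 fold change 0.47) and follistatin-like 1 (FSTL1) at 41.0 and 59.7 FPKM (0.54), so both were higher, but less than 1.5-fold. SPARC exceeded SPOCK1 21.96 times in TPC1-Vector and 12.1 times in TPC1-INAVA. The protease cathepsin L (CTSL), which testican-1 inhibits, was at 76.5 and 71.1 FPKM.

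Of the 7 genes tested around SRPX2 and uPAR, 2 were at least 2-fold higher, against 0.610% of all genes. This list too was chosen with earlier results of these data known, so nothing can be read from the count. SRPX, the paralog of SRPX2, was at 1.46 and 3.45 FPKM, with a log2 fold change of 1.01, so it lies at the threshold. Cathepsin B (CTSB), a lysosomal protease named among the binding partners of SRPX2, stood at 128 FPKM in TPC1-Vector against 290 FPKM in TPC1-INAVA (log2 fold change 1.17). The receptor of SRPX2, uPAR (PLAUR), was at 27.9 and 42.9 FPKM (0.62), while urokinase (PLAU), another ligand of that receptor, was at 288 and 218 FPKM (-0.40). The transcripts of the receptor and of SRPX were thus higher and that of urokinase was lower in TPC1-INAVA. In this list 5 were higher and 2 lower, with a median of 0.12. SRPX exceeded SRPX2 6.03 times in TPC1-Vector and 4.19 times in TPC1-INAVA.

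**Figure D4:**
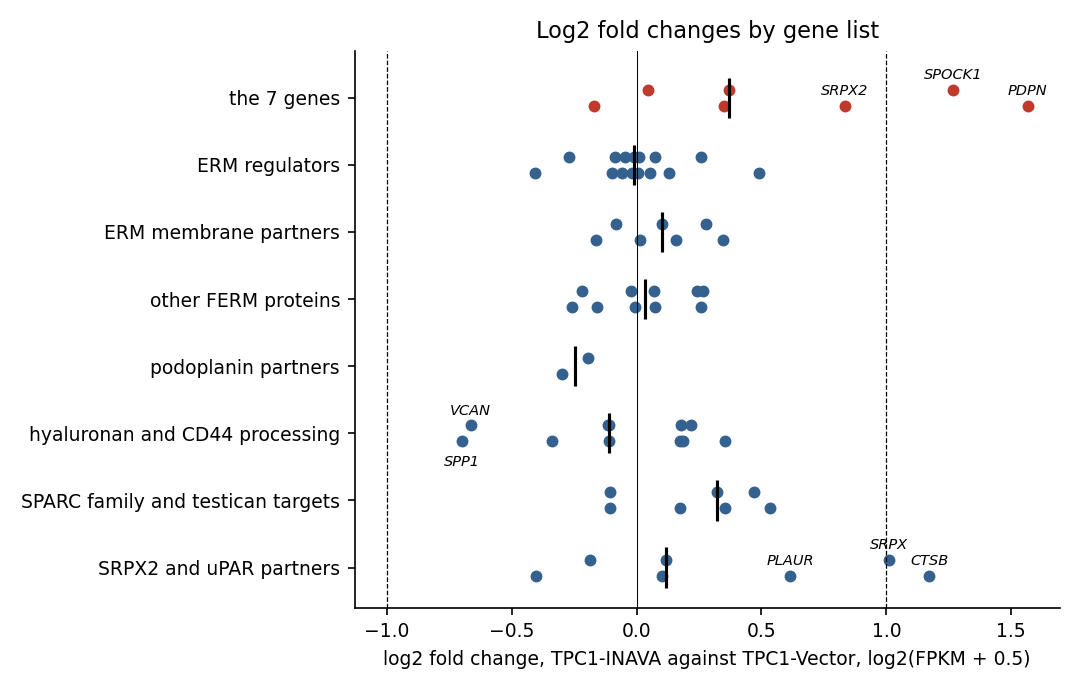
Log2 fold change of each gene tested, TPC1-INAVA against TPC1-Vector on log2(FPKM + 0.5), by gene list, with the median as a black bar, dashed lines at 2-fold and the symbols of genes past 1.5-fold. Past 2-fold lie PDPN and SPOCK1 in the top row and SRPX and CTSB in the bottom row, and SPP1 and VCAN stand to the left at -0.70 and -0.66.

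PDPN also marks lymphatic endothelium, some fibroblasts and macrophages. Both groups here were TPC1 cells in culture and not tissue, and the paper states that its lines were authenticated by DNA profiling. In bulk RNA, more TPC1 cells with PDPN and more PDPN RNA per cell cannot be told apart. Of 7 lymphatic endothelial markers 0 were analysed here. Of 7 fibroblast markers 2 were analysed, COL1A1 at 0.937 and 0.571 FPKM and PDGFRB at 2.24 and 1.39 FPKM. Both are weak, and they sum to 3.18 and 1.96 FPKM. Of 7 leukocyte markers 3 were analysed, summing to 6.24 and 9.48 FPKM, most of it the lysosomal CD68 at 5.76 and 8.67 FPKM. The marker values are thus levels in a cultured line, and a part of other cells in the values of PDPN was not tested. The keratin KRT8 was at 23.4 and 10.5 FPKM (log2 fold change -1.12), at least 2-fold lower, as were 0.244% of all genes. Its partner KRT18 was at 140 and 212 FPKM, so epithelial markers went both ways.

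The genes on the chromosome around each of the 7 genes are given for context. Because PDPN, SPOCK1 and SRPX2 were selected for being higher, that they exceed most of their neighbours follows from the selection. Within 1 Mb of PDPN, 1 of 3 genes tested was higher and the median log2 fold change was -0.18. The nearest genes tested on each side were DHRS3, 966 kb away at -0.85, and PRDM2, 82.3 kb away at 0.19. Within 1 Mb of SPOCK1, 4 of 11 were higher, with a median of -0.031, and the highest was TGFBI, an extracellular matrix protein induced by TGF-β, at 1.38. SRPX2 lies between TSPAN6, 7.06 kb away at -0.16, and SYTL4, 3.19 kb away at -0.32, and 8 of 14 genes within 1 Mb were higher, with a median of 0.058. For CD44 5 of 8 and for EZR 9 of 15 were higher, with medians of 0.036 and 0.033. Next to EZR, C6orf99 (47.6 kb away) was at 6.15 and 14.2 FPKM, a log2 fold change of 1.15, while EZR itself was at -0.17. All 3 genes around MSN were higher, with a median of 0.31 near its own 0.35, and both genes around RDX were lower.

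**Figure D5:**
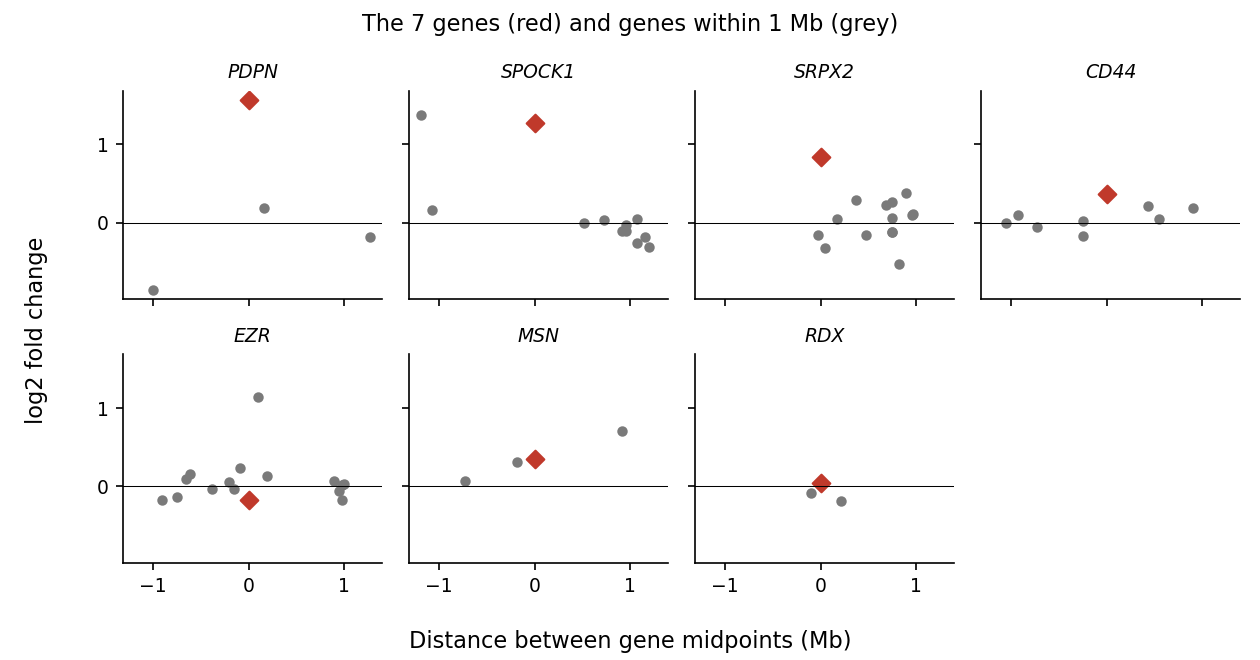
For each of the 7 genes (red diamond), the log2 fold change of the genes tested within 1 Mb (grey circles) by the distance between gene midpoints in Mb. PDPN, SPOCK1 and SRPX2 were selected for being higher, which places their diamonds high. Among the neighbours, TGFBI at 1.38 near SPOCK1 and C6orf99 at 1.15 near EZR lie highest, and the diamond of MSN lies among its neighbours.

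By the distance between log2(FPKM + 0.5) values in the 2 groups, the genes most like PDPN included RGS4 (distance 0.17) and TGFBI (0.27). RGS4 was at 4.71 and 13.1 FPKM and TGFBI at 4.41 and 12.3 FPKM. The nearest to SPOCK1 was C6orf99 (0.11), followed by GJB2 and PLTP (0.27 and 0.34), and the nearest to SRPX2 was CST7 (0.044), at 0.221 and 0.836 FPKM. For MSN the nearest were ACTN1 (0.014), at 149 and 188 FPKM, and TPM2 (0.031), at 151 and 192 FPKM, both actin-binding proteins. SMS followed (0.057), at 154 and 192 FPKM. S100A13 (0.052) was nearest to CD44, NUCKS1 (0.028) to EZR and KIAA0100 (0.011) to RDX. Likeness over 2 values is a weak measure.

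CD44 and EZR each overlap 1 antisense gene in GENCODE, CD44-AS1 and EZR-AS1, and no source used here says whether the counting used strand. CD44 also overlaps AL133330.1, listed as sense intronic on the same strand, which strand could not separate. MSN has a processed pseudogene, MSNP1, on chromosome 5, and how reads were divided between them was not tested.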

How the data were processed

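RNA-seq of TPC1-Vector and TPC1-INAVA cells was analysed, with 2 libraries per group that the authors had combined before deposition, so that the deposited FPKM table holds 1 value per gene and group. The submitters' processing notes name CASAVA, Cufflinks 2.1.1, Cuffdiff and the build hg38; the aligner and annotation are not given in the sources used here. The table also holds the authors' log2 ratios, p-values and q-values, which were not used. Depth per library is unknown, so no counting error can be given, and no test was made.

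Differences of log2(FPKM + 0.5) were computed for genes whose group values averaged 0.5 FPKM or more, and 2-fold was the threshold for counts. The scripts were tested on simulated data. Gene starts were given from 1. GENCODE release 29 (GRCh38) and RefSeq GRCh38.p14 supplied annotation and sequences. The 7 genes and all lists were chosen with earlier results of these data known. Named were the 7 genes, genes of the lists, INAVA, chromosomal neighbours within 1 Mb and the 3 genes nearest in level, of which not every one is reported here. SNORA57 was named after its value was seen. Python 3.11.15, numpy 2.4.6, pandas 2.3.3 and matplotlib 3.10.9 were used. Alternatives were other pseudocounts, filters, scalings and a 1.5-fold threshold.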

Additional observations from a re-analysis of the deposited data

How the results depend on the processing

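No paired analysis was possible because each group has a single deposited value, and for the same reason leaving out each library in turn was not run. With no spread between libraries, a log2 value was taken to have moved if it shifted by more than 0.1 or crossed 2-fold, and a count if it changed by more than 1.5 times. PDPN ranged from 1.48 to 1.66 and SPOCK1 from 1.21 to 1.34 over 8 alternatives. In the same alternatives CD44 ranged from 0.30 to 0.38 and EZR from -0.23 to -0.17. MSN ranged from 0.30 to 0.35 and RDX from 0.012 to 0.050. A pseudocount or a filter cannot change the direction of a gene, so only the scalings could have done so, and under them these genes kept theirs. SRPX2, at 0.83, was at 1.43 with 0.1 FPKM added, 0.55 with 1 added and 1.76 with no pseudocount, since the added value shrinks the change of weak genes, and it has no value at a mean of at least 1 FPKM. Of all genes, the numbers past 2-fold upward and downward, 75 and 30, were 121 and 58 with 0.1 added, 52 and 20 with 1 added, 151 and 68 with no pseudocount, and 276 and 179 at 1.5-fold. In the list around SRPX2, 1 gene was at least 2-fold higher with 1 added, since SRPX lies at the threshold. In the hyaluronan list the median was -0.0045 with no filter, where a weak gene is added, and 2 genes were lower at 1.5-fold. Of the 7 genes, 3 in place of 2 were at least 2-fold higher with 0.1 added or no pseudocount, SRPX2 being the third. The other values computed under alternatives did not move by these limits.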
